A study of Mus musculus with 12 samples.

Results

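Fos, Egr1, Npas4, Arc and Bdnf are genes that neurons switch on within minutes to hours of being excited. Calcium entering an active neuron reaches the nucleus as a signal through kinases, and transcription factors already on the DNA, among them CREB, SRF and MEF2 proteins, then start transcription of these genes. Fos, Egr1 and Npas4 encode transcription factors that carry the response on to later genes, whereas Arc and Bdnf encode proteins that act at synapses. In the developing cortex Bdnf supports growth and maturation of synapses. Enhancers some distance from these promoters are a well described part of their control.

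Open chromatin at these 5 genes was followed with ATAC-seq, in which a transposase cuts accessible DNA, in neocortical neurons of the CD1 strain. The deep-layer population came from Golli-GFP transgenic mice, sampled on embryonic days E13.5 and E16.5 and again on E18.5. Upper-layer neurons were labelled at E15.5 by in utero electroporation with Cdk5r-GFP, a plasmid with GFP under the Cdk5r promoter, and were taken at E17.5, P1 and P5. All were GFP-positive cells sorted from dissected neocortex, pooled from 2 to 8 embryos per replicate according to the labels. Each of the 6 groups had 2 replicates, so 12 peak lists were compared, 8 prenatal and 4 postnatal, and every postnatal list was from upper-layer neurons. Birth and population are therefore partly confounded, and the 2 reporters differ in how they mark cells. Whether replicates were separate litters is not given, and p-values then reflect only how far these lists vary, possibly for technical reasons.

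The members were chosen by position alone, as every peak that overlapped an mm9 interval around each gene: chr12:86750000-86870000 for Fos, chr18:34990000-35060000 for Egr1, chr19:4960000-5010000 for Npas4, chr15:74470000-74530000 for Arc and chr2:109480000-109600000 for Bdnf. These intervals, themselves chosen with earlier results of these data known, span 420 kb. They held 494 peaks over all lists, which merged into 101 regions of 498516 in the genome, with 22 regions for Fos, 20 for Egr1, 13 for Npas4, 18 for Arc and 28 for Bdnf. Since no mm9 annotation was used here, no region is assigned to a promoter, exon or intron, and an interval can hold parts of neighbouring genes. In the GRCm38.p6 order of protein-coding genes, the neighbours are Tmed10 and Jdp2 for Fos, Reep2 and Etf1 for Egr1, Mrpl11 and Slc29a2 for Npas4, Mroh4 and Jrk for Arc, and Kif18a and Lin7c for Bdnf.

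Lists held 96452 to 164508 peaks, and no read depth was given. The total covered length was 48.0 to 100.4 Mb in the prenatal lists and 45.3 to 52.6 Mb in the postnatal lists, so each covered length below is also given per Mb covered in its list. The 2 upper-layer E17.5 lists stood apart from the other replicate pairs. Their peak names carry the same library name, and 93.4% of the peaks of the shorter list overlapped the longer, against 40.3% to 80.7% in the other pairs. In the list labelled P1 replicate 3, the peak names carry the replicate number 2. Results were repeated without each list in turn.

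Sequence just before the start sites is shown for the genes with an entry in the promoter set used (3 of the 5; 9 start sites in all). Egr1 and Arc had no entry there and were not searched. CREB, among the factors named above, binds the core TGACG. The 250 bases before each start were searched for TGACG on both strands (its complement is CGTCA), for the full palindrome TGACGTCA, which contains the core, and for the CArG box of SRF. Coordinates of these sequences are on GRCm38.p6, were not converted, and cannot be compared with the mm9 positions of peaks. Capitals mark TGACG or CGTCA. The Fos sequence is from chr12:85473640-85473889 on the plus strand, the Npas4 sequence from chr19:4989972-4990221 on the minus strand, and the Bdnf sequence from chr2:109692186-109692435 on the plus strand, number 3 of the 7 Bdnf start sites in position order. Each is printed 5′ to 3′ along the gene.
Fos: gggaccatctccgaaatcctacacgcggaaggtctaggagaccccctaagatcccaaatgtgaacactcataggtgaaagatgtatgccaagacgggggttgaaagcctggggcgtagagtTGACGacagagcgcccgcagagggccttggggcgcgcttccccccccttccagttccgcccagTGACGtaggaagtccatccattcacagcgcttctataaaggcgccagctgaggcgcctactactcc
Npas4: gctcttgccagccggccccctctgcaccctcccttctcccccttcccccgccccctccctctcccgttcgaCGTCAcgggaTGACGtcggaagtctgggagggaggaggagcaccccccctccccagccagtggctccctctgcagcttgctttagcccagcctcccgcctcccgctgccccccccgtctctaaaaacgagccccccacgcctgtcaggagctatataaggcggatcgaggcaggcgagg
Bdnf: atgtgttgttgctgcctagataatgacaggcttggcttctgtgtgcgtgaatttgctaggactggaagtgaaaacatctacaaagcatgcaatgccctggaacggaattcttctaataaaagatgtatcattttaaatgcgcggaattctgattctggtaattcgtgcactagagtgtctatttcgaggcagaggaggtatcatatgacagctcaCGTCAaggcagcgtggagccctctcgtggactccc
The Fos sequence held the core at 2 places, beginning 129 and 66 bases before the start. The Npas4 sequence also held 2, beginning 179 and 169 bases before the start, on opposite strands and pointing away from each other. Of the 7 Bdnf start sites only this one held the core, beginning 35 bases before the start. The core was present in 17.8% of all 32851 promoter windows of this length, the palindrome in 1.55% and the CArG box in 1.47%, and neither of the latter was found in the 9 windows. These matches are descriptions of letters, not of bound sites. Bases further upstream were not searched, so a site there would be missed.

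All 5 intervals were open in every group. Over the whole interval, Bdnf was the only gene called across birth both in bp and per Mb covered, as lower after birth. Egr1 was called per Mb covered alone, in the opposite direction. A core of 17 of the 101 regions was open in all 12 lists: 5 at Fos, 4 at Egr1, 3 at Npas4, 3 at Arc and 2 at Bdnf. That is 16.8% of the regions, beside 3.42% of all regions in the genome. At the other end, 44 regions (43.6%) were open in a single list, beside 53.2% in the genome. Of these 44, 31 came from the 4 postnatal lists, led by P1 replicate 1 with 11. The genome had 265396 single-list regions. Of those, P1 replicates 1 and 3 held 41876 and 40265, and P5 replicates 1 and 2 held 54762 and 28566. Across the genome, 28.3% to 43.8% of the regions of a postnatal list were open in that list alone, against 2.37% to 15.2% in prenatal lists, and the part of this in the single-list regions here was not tested. Averaged over lists, 8.87% of the Egr1 interval was covered, 6.45% of the Npas4 interval, 5.22% of Fos, 5.16% of Bdnf and 4.62% of Arc, where the median 100 kb window of the genome was covered to 2.08% and the upper quartile was 3.34%. In bulk lists, a region open in few cells and a region weakly open in all cells cannot be told apart.

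**Figure D1:**
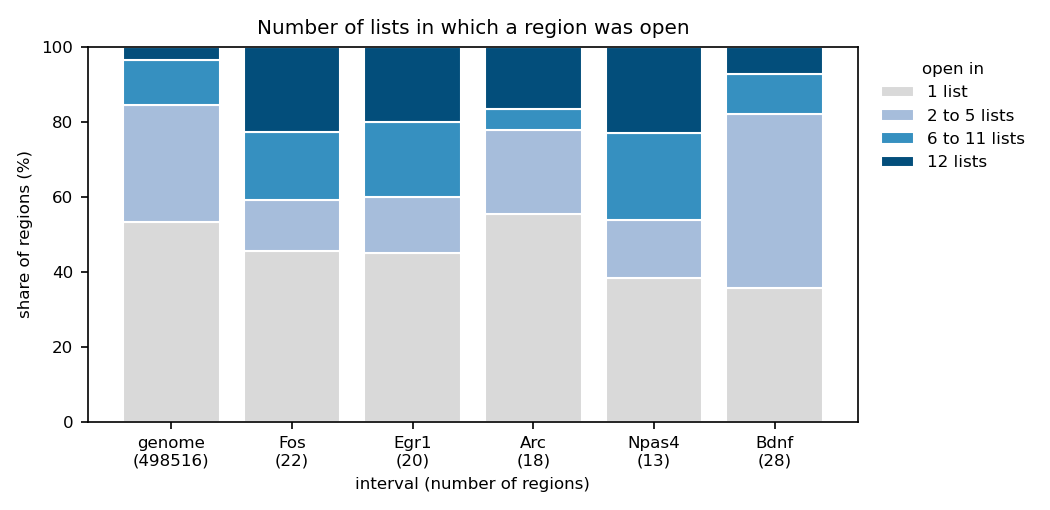
Stacked bars give the share of regions (%) by the number of peak lists in which they were open, for the whole genome and for each gene interval, with the number of regions under each bar. The darkest segment, regions open in all 12 lists, is 3.42% for the genome and from 7.14% at Bdnf to 23.1% at Npas4.

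Fos encodes the partner of Jun proteins in the AP-1 transcription factor. Its interval was covered over 5931 and 6189 bp at deep-layer E13.5, 6084 and 6485 bp at E16.5, and 5624 and 6201 bp at E18.5. In upper-layer neurons the values were 7145 and 7330 bp at E17.5, 7190 and 5336 bp at P1, and 5903 and 5692 bp at P5. The groups overlapped, with the upper-layer E17.5 pair and P1 replicate 1 highest. The mean was 6374 ± 589 bp in prenatal lists (SD, n = 8) and 6030 ± 808 bp in postnatal lists (SD, n = 4), a difference within the spread (exact permutation test, two-sided, p = 0.412, adjusted p = 0.494 over the intervals and 25868 windows of 100 kb). Postnatal minus prenatal, the difference was -343 bp, and it was -730 bp without P1 replicate 1 and -112 bp without P1 replicate 3, called in neither case. With the interval shortened by 0.25 of its length at each end it was -676 bp and passed (exact permutation adjusted p = 0.0103). Per Mb covered in the list the direction was the opposite, with 97.0 ± 19.3 bp before birth and 126.2 ± 22.0 bp after it (SD, n = 8 and 4; exact permutation adjusted p = 0.0612). In that comparison of all windows, 27% were called higher in prenatal and 23% higher in postnatal lists at an adjusted p under 0.05.

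The 5 Fos regions open in every list lay at chr12:86776830-86777847, chr12:86795803-86797088, chr12:86814304-86816087, chr12:86826363-86827474 and chr12:86833002-86833515. The widest was chr12:86814304-86816087. It was covered over 987 and 1013 bp at deep-layer E13.5, 1222 and 1248 bp at E16.5, 1236 and 1467 bp at E18.5, 1554 and 1635 bp at upper-layer E17.5, 1698 and 1151 bp at P1 and 1593 and 1642 bp at P5. Deep-layer E13.5 was lowest, and 5 of the 6 upper-layer lists lay above every deep-layer list. The mean was 1196 ± 176 bp in deep-layer and 1546 ± 199 bp in upper-layer lists (SD, n = 6 each; exact permutation test, two-sided, p = 0.013), which did not pass adjustment over the 17048 regions open in all lists (adjusted p = 0.16). No region passed there in either direction (0% called, with 11.1% wider in deep-layer and 10.1% wider in upper-layer lists at an unadjusted p under 0.05). Relative to the median width of these regions in each list, the region was 1.36 ± 0.15 before birth and 1.91 ± 0.37 after it (SD, n = 8 and 4; exact permutation adjusted p = 0.0391). The region chr12:86826363-86827474 also passed on that scale, at 0.84 ± 0.12 and 1.04 ± 0.09 (SD, n = 8 and 4; exact permutation adjusted p = 0.0448). Both sets of ranges overlapped, and in bp neither region passed (exact permutation adjusted p = 0.287 and 0.785). On the relative scale 13.7% of all such regions were called wider in postnatal lists and 10.6% wider in prenatal lists, and 3 of the 17 in the intervals, all wider in postnatal lists.

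A Fos region seen only before birth lay at chr12:86808502-86809419. It was covered over 723 and 839 bp at deep-layer E13.5, 685 and 692 bp at E16.5, 415 and 574 bp at E18.5 and 394 and 344 bp at upper-layer E17.5, and no peak was listed there in any of the 4 postnatal lists. Coverage was greatest at deep-layer E13.5 and lowest, among the open lists, at upper-layer E17.5, and open and closed lists parted at birth. By Fisher's exact test over the lists (8 of 8 against 0 of 4, two-sided) p was 0.00202, and the adjusted p over the 113942 regions tested was 0.0197. Regions called more often open in prenatal lists made up 7.84% of those tested, and those called more often open in postnatal lists 2.4%. Of the 101 regions in the intervals 20 could be tested, since only some numbers of open lists, from 3 to 9, can give p under 0.05, and 2 were called, this region and one at Egr1. The call rested on an adjusted p close to the threshold: it kept its side without any single list, but lost it in 5 of 8 other settings, with adjusted p up to 0.234 (Fisher's exact test, or exact permutation within replicate numbers). Permutation within replicate numbers is among these settings and could call no region, since complete separation already has its smallest p.

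Other Fos regions came and went. The region at chr12:86824171-86824545 was open at deep-layer E13.5 in both lists and in E16.5 replicate 1 only, and chr12:86837751-86838086 was open in the 2 E13.5 lists alone. The region at chr12:86812862-86813506 was open in 6 lists, among them both upper-layer E17.5 lists but no more than 1 list of each other group. The region at chr12:86828488-86829202 was open in 11 lists, with P1 replicate 3 the exception, and chr12:86777950-86778622 also in 11, with deep-layer E18.5 replicate 1 the exception. Of the 10 Fos regions seen in a single list, 5 came from P1 replicate 1, which held 41876 of the 265396 such regions in the genome.

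Egr1 encodes a zinc-finger transcription factor of the immediate early response. The covered length was 3669 and 6596 bp at deep-layer E13.5, 6251 and 5021 bp at E16.5 and 5895 and 7589 bp at E18.5. It was 6543 and 6043 bp at upper-layer E17.5, 6165 and 5208 bp at P1, and 8072 and 7431 bp at P5. The 2 lists of E13.5 lay far apart, and prenatal lists (5951 ± 1173 bp, SD, n = 8) and postnatal lists (6719 ± 1282 bp, SD, n = 4) overlapped (exact permutation test, two-sided, p = 0.325, adjusted p = 0.41). Per Mb covered in the list, however, Egr1 was higher after birth. These values were 60.5 and 90.4 bp at deep-layer E13.5, 101.4 and 104.6 bp at E16.5, 113.1 and 100.9 bp at E18.5, 65.1 and 80.9 bp at upper-layer E17.5, 136.0 and 110.0 bp at P1 and 153.5 and 158.0 bp at P5. P5 was highest, and only P1 replicate 3 fell within the prenatal range. The means were 89.6 ± 19.2 bp before birth and 139.4 ± 21.8 bp after it (SD, n = 8 and 4; exact permutation test, two-sided, p = 0.00404, adjusted p = 0.0124). With 23% of windows called in this direction, the call is not particular to Egr1.

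The widest Egr1 region, chr18:35019337-35021503, was open in all 12 lists. It was covered over 1286 and 1449 bp at deep-layer E13.5, 1312 and 980 bp at E16.5, 1673 and 1880 bp at E18.5, 1986 and 1991 bp at upper-layer E17.5, 1843 and 1811 bp at P1 and 2016 and 2126 bp at P5. Upper-layer lists were high at every stage, and the single deep-layer list within their range was E18.5 replicate 2. In bp the mean was 1430 ± 316 in deep-layer and 1962 ± 117 in upper-layer lists (SD, n = 6 each; exact permutation test, two-sided, p = 0.00649, adjusted p = 0.135). Relative to the median of each list it was 1.55 ± 0.19 in deep-layer and 2.25 ± 0.34 in upper-layer lists without overlap (SD, n = 6 each; exact permutation adjusted p = 0.0421), where 2.61% of the regions were called wider in upper-layer and 2.53% wider in deep-layer lists. Across birth the relative width was 1.63 ± 0.22 and 2.44 ± 0.20, also without overlap (SD, n = 8 and 4; exact permutation adjusted p = 0.0183). The difference in bp across birth, 1570 ± 372 and 1949 ± 148 (SD, n = 8 and 4), did not pass (exact permutation adjusted p = 0.205).

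The other Egr1 regions open in every list were chr18:34999647-35001565, chr18:35008852-35010236 and chr18:35046474-35047831. The last of these was covered over only 213 bp in E13.5 replicate 1 and over 488 to 1209 bp elsewhere. Of 3 Egr1 regions seen only before birth, chr18:34993316-34993759 was open in all 8 prenatal lists, over 217 to 444 bp, and in no postnatal list (Fisher's exact test, p = 0.00202, adjusted p = 0.0197). It was a narrow region, and its call was lost in 7 of 8 other settings, with adjusted p up to 0.19 where it could be tested (Fisher's exact test, or exact permutation within replicate numbers), though in none that left out a single list. These settings again include permutation within replicate numbers, where no region could be called. The region at chr18:35011406-35012152 was open in 7 lists, at E16.5, E18.5 and P5 in both replicates and at E13.5 in replicate 2, but not in the upper-layer lists of E17.5 and P1. The region at chr18:35014724-35015172 showed a similar set of lists, with both E18.5 and both P5 lists and E13.5 replicate 1. The region chr18:35005877-35006543 was open in postnatal lists alone, P1 replicate 1 and P5 replicate 1. The last region, chr18:35059898-35061835, crossed the end of the interval, and only 4 of the 11 lists open in it had a peak inside the interval.

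**Figure D2:**
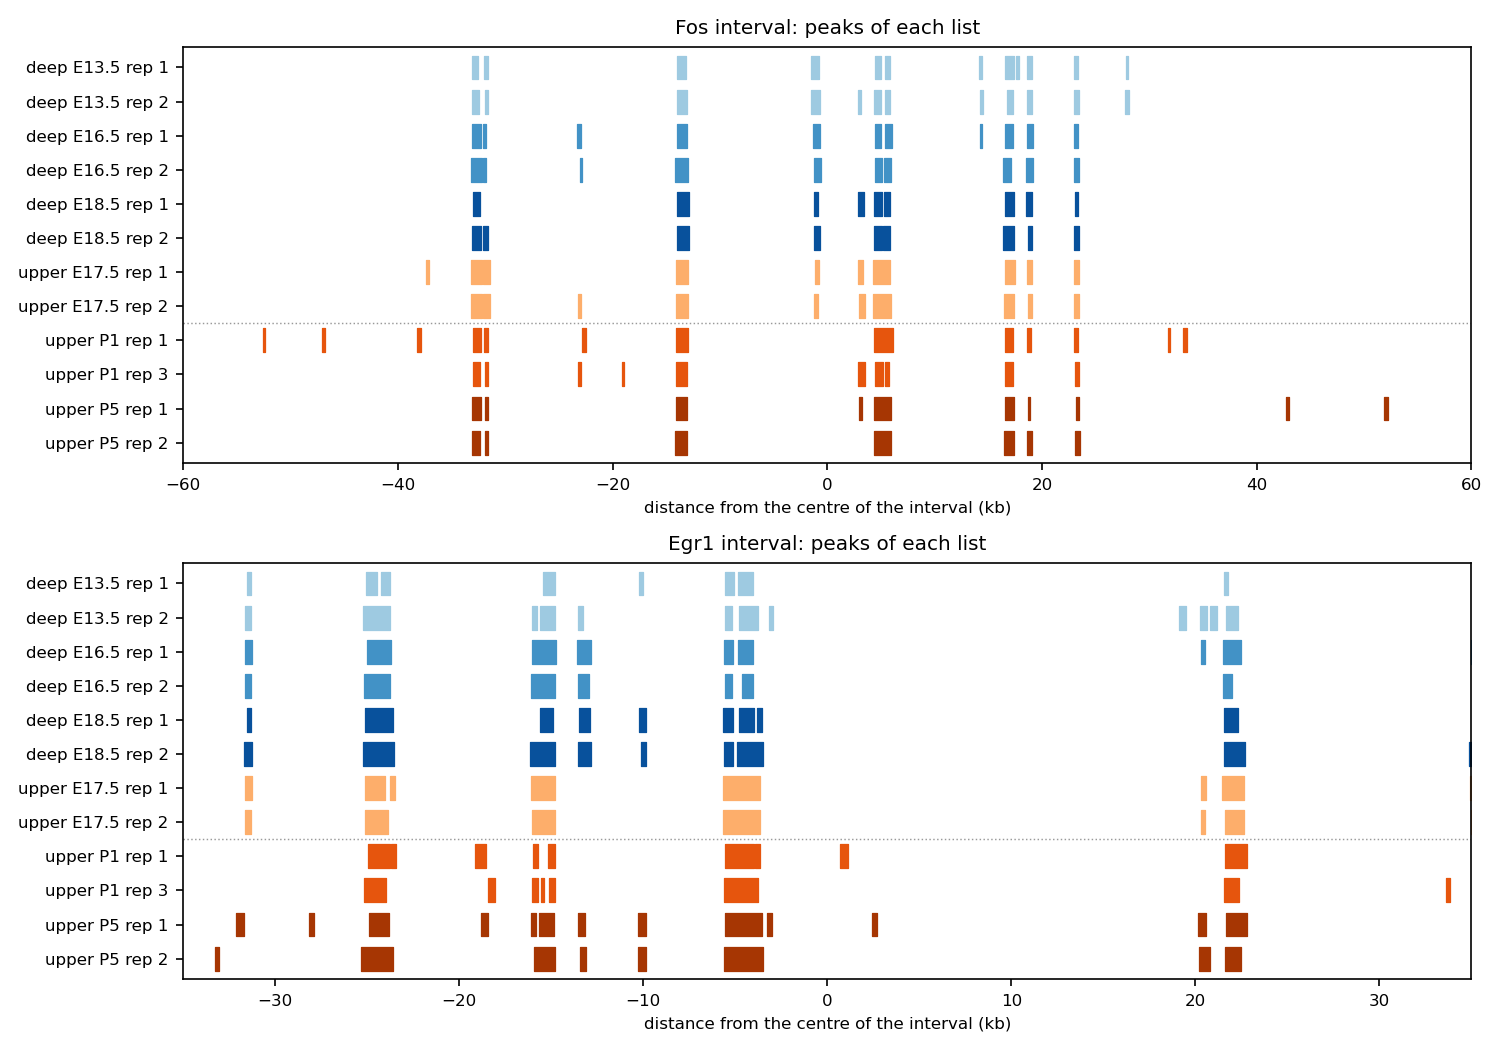
Each row is a peak list and each bar a peak, drawn to scale against the distance (kb) from the centre of the Fos interval (top) and the Egr1 interval (bottom), with colours for the 6 groups and a dotted line between prenatal and postnatal lists. The 5 Fos and 4 Egr1 regions open in all lists form unbroken columns, and the columns centred at -1040 bp (Fos) and -31463 bp (Egr1) end at the dotted line.

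Npas4 encodes a transcription factor found mainly in neurons that responds to calcium entry and controls inhibitory and excitatory synapses. Its interval was the shortest. Covered lengths were 1869 and 3405 bp at deep-layer E13.5, 2632 and 3550 bp at E16.5, 3095 and 4846 bp at E18.5, 3478 and 2695 bp at upper-layer E17.5, 2608 and 4314 bp at P1 and 2735 and 3486 bp at P5. Lists of the same group differed by as much as the groups did. Prenatal lists averaged 3196 ± 871 bp (SD, n = 8) and postnatal lists 3286 ± 787 bp (SD, n = 4), with no detectable difference (exact permutation test, two-sided, p = 0.848, adjusted p = 0.882). Per Mb covered in the list, the means were 48.6 ± 15.7 and 68.7 ± 17.7 bp (SD, n = 8 and 4; exact permutation adjusted p = 0.119).

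The regions open in every list were chr19:4961733-4962670, chr19:4989240-4990444 and chr19:5001495-5002565. The widest, chr19:4989240-4990444, was covered over 694 to 1105 bp before birth and 903 to 1085 bp after it, and the third had a similar extent in all lists, from 701 to 928 bp. The other regions were open in 1 to 8 lists, with no common order. One at chr19:4992720-4993279 was open in 8 lists, namely E13.5 replicate 2, both lists of E16.5, E18.5 and P1, and E17.5 replicate 1. Another at chr19:4990693-4991189 was open in 6 lists, including E18.5 replicate 2, both E17.5 and both P5 lists. The region at chr19:4983371-4983705 was open in both E18.5 lists alone, and chr19:4994018-4994410 in both E18.5 lists and P5 replicate 2. E18.5 replicate 2, which had the most Npas4 peaks with 9, also held the widest region of a single list, chr19:4984740-4985186. None of the 3 Npas4 regions tested passed across birth.

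Arc encodes a protein that promotes the removal of AMPA receptors from synapses. Its covered length was 2897 and 3314 bp at deep-layer E13.5, 1985 and 2126 bp at E16.5, 2035 and 2610 bp at E18.5, 4010 and 4453 bp at upper-layer E17.5, 3204 and 1888 bp at P1 and 1844 and 2915 bp at P5. The upper-layer E17.5 pair was highest of all lists, and E13.5 replicate 2 came next. Prenatal lists averaged 2929 ± 932 bp and postnatal lists 2463 ± 699 bp (SD, n = 8 and 4), within the spread (exact permutation test, two-sided, p = 0.402, adjusted p = 0.484). Within upper-layer neurons the E17.5 mean of 4232 ± 313 bp (SD, n = 2) exceeded every P1 and P5 list (exact permutation test, two-sided, p = 0.133; the smallest p that 2 against 4 lists allow is 0.0667). Per Mb covered in the list the ranges overlapped, at 49.8 ± 13.9 bp at E17.5 and 51.9 ± 17.1 bp after birth (SD, n = 2 and 4; exact permutation p = 0.867). Here too the 2 E17.5 lists, which carry the same library name, are counted as separate replicates.

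Arc regions open in every list lay close together, at chr15:74502475-74503447, chr15:74503565-74504223 and chr15:74509035-74510328. The middle one, chr15:74503565-74504223, was narrower after birth. It was covered over 656 and 541 bp at deep-layer E13.5, 485 and 541 bp at E16.5, 489 and 465 bp at E18.5, and 464 and 492 bp at upper-layer E17.5, against 397 and 342 bp at P1 and 290 and 445 bp at P5. The ranges did not overlap, and the means were 517 ± 63.7 bp and 369 ± 67.2 bp (SD, n = 8 and 4; exact permutation test, two-sided, p = 0.00202, adjusted p = 0.0163). Regions open in all lists were called narrower after birth in 22.6% of cases and wider in 2.01%, and relative to the median of the list the Arc difference did not pass (exact permutation adjusted p = 0.354). Without P5 replicate 1 the adjusted p in bp was 0.0577 (exact permutation). Of the 17 regions in the 5 intervals this was the only one called in bp in either comparison.

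Of the 15 Arc regions outside this core, 10 were open in a single list and 3 were open in E13.5 and E17.5 lists alone. The region at chr15:74497810-74498567 was open in the 2 E13.5 lists (624 and 573 bp) and the 2 upper-layer E17.5 lists (748 and 753 bp) and in none of the other 8 lists. The region at chr15:74512312-74512869 was open in both E17.5 lists and in E13.5 replicate 1, and chr15:74470581-74471012 in both E17.5 lists and E13.5 replicate 2. E13.5 and E17.5 were the earliest stages sampled in their populations, but the share of regions with this pattern in the genome was not computed. The 3 regions did not pass across birth (Fisher's exact test, adjusted p 0.36 to 0.592), so the pattern is a description and not particular to Arc. Each of these 3 patterns rests on the E17.5 pair that carries the same library name. The region at chr15:74522686-74523154 was open in all prenatal lists and in P1 replicate 3 and P5 replicate 2. Of the 10 Arc regions found in a single list, 8 came from postnatal lists, among them chr15:74516521-74516942 in P1 replicate 1. Across the genome too, each postnatal list held more single-list regions than any prenatal list. The region chr15:74472413-74472978 was open in both P1 lists alone.

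**Figure D3:**
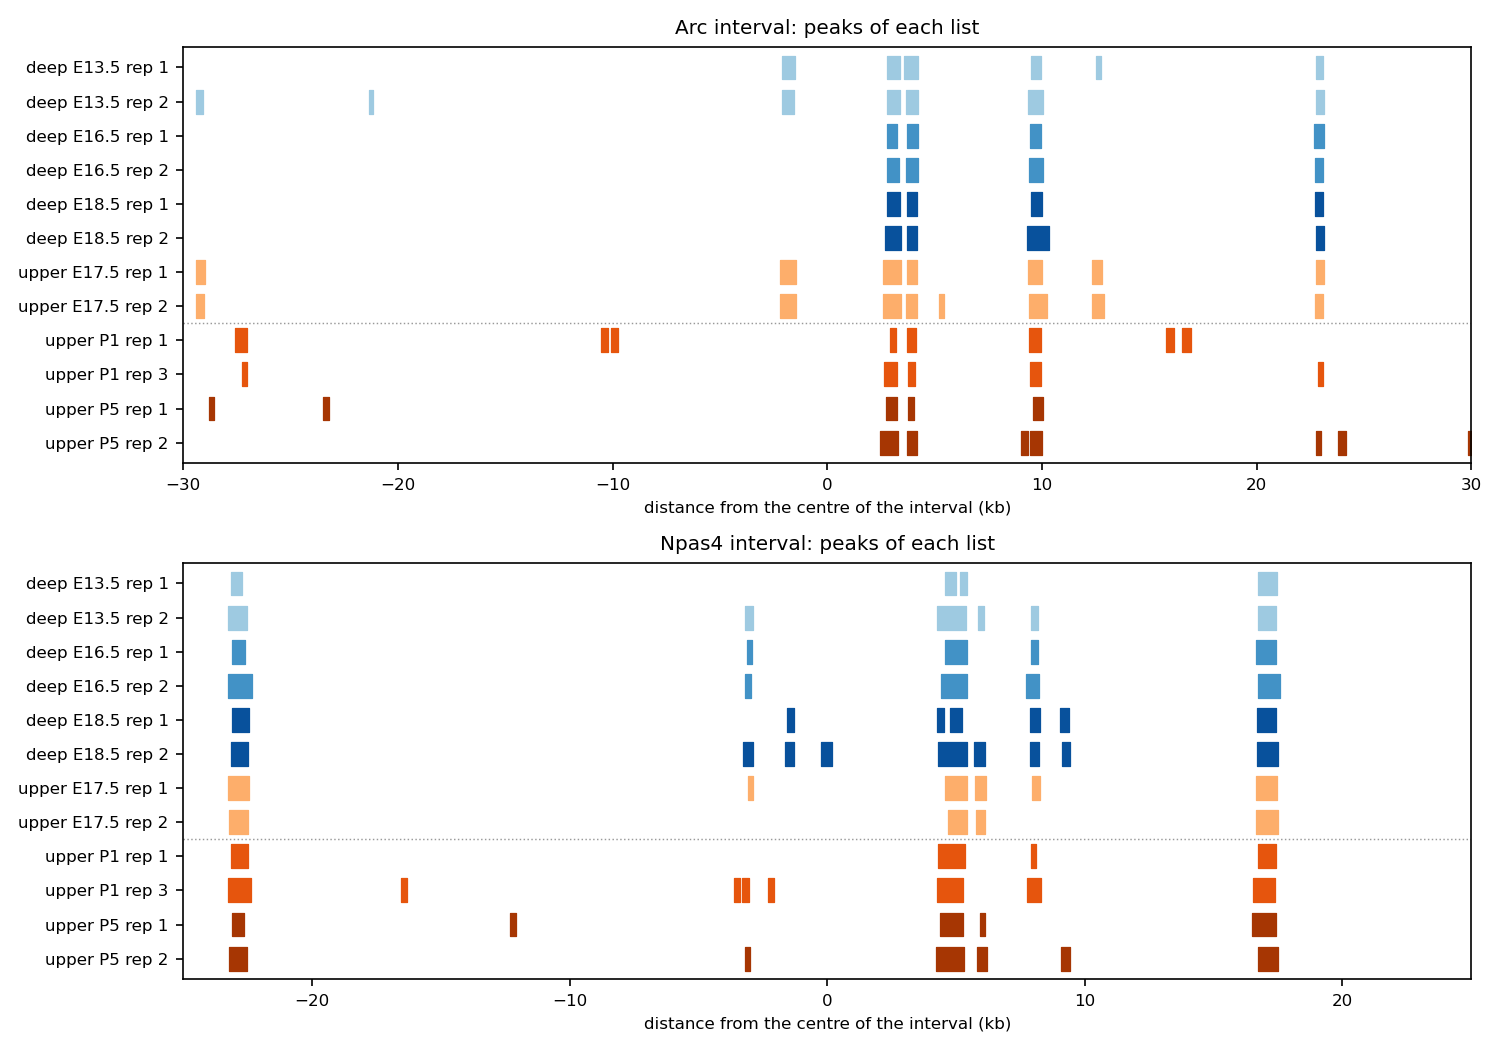
Peaks of each list, drawn as in the plot for Fos and Egr1, for the Arc interval (top) and the Npas4 interval (bottom), against the distance (kb) from the interval's centre. At Arc the columns shared by the E13.5 and upper-layer E17.5 rows have no bar in the rows between or below them, and at Npas4 the 3 regions open in all lists stand among scattered peaks.

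Bdnf encodes brain-derived neurotrophic factor, a secreted ligand of the receptor TrkB, and is transcribed from many alternative start sites. Its interval was covered over a shorter length in postnatal than in prenatal lists. The covered length was 6677 and 8185 bp at deep-layer E13.5, 6687 and 5308 bp at E16.5, 5930 and 7350 bp at E18.5, and 10206 and 7632 bp at upper-layer E17.5. It was 3867 and 4340 bp at P1 and 3807 and 4274 bp at P5. Every postnatal list lay below every prenatal list. The means were 7247 ± 1508 bp before birth and 4072 ± 274 bp after it (SD, n = 8 and 4), 1.78 times as much (exact permutation test, two-sided, p = 0.00404, adjusted p = 0.0162). Per Mb covered in the list they were 107.1 ± 5.80 and 85.1 ± 8.91 bp, again without overlap (SD, n = 8 and 4; exact permutation p = 0.00202, adjusted p = 0.00758). Within upper-layer neurons, the comparison across birth that does not also change population, the E17.5 mean was 2.19 times that of P1 and P5 in bp (exact permutation test, two-sided, n = 2 and 4, p = 0.0667, the smallest this design allows). Per Mb covered it was 1.20 times, at 101.9 ± 0.43 and 85.1 ± 8.91 bp (SD, n = 2 and 4; exact permutation p = 0.133), so the size of this difference depends on the scaling. Both comparisons count the 2 E17.5 lists as separate replicates, although they carry the same library name and may not be independent.

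A fall of this kind was common in these lists. Of the 25868 windows, 32.1% were called higher in prenatal lists and 11.1% higher in postnatal lists by covered length, and 27% and 23% per Mb covered. The median window with postnatal peaks had a ratio of prenatal to postnatal means of 1.57 by covered length and 1.10 per Mb covered. Against this the Bdnf ratios of 1.78 and 1.26 were above the median window, and the other 4 genes were below it, with ratios by covered length of 1.06 for Fos, 0.886 for Egr1, 0.973 for Npas4 and 1.19 for Arc. The Bdnf call held without any single list, with adjusted p of 0.0132 to 0.0438 (exact permutation test). Across birth the mean fell by 2752 bp without upper-layer E17.5 replicate 1 and fell by 3120 bp without replicate 2 (exact permutation adjusted p = 0.0140 and 0.0309). The number of peaks fell too, from 9 to 16 before birth to 6 to 8 after it.

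**Figure D4:**
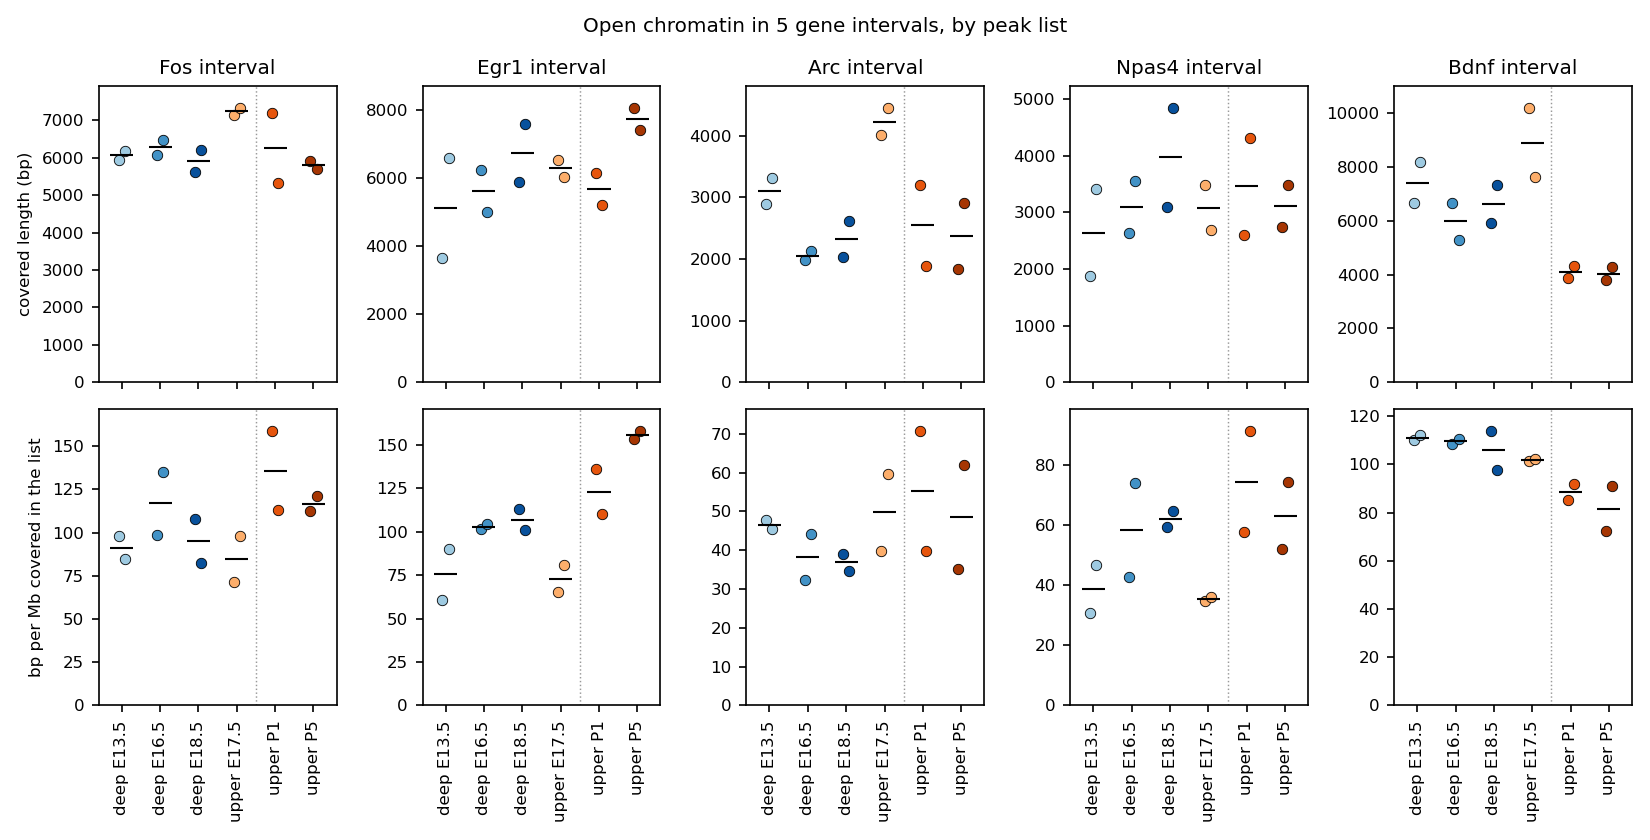
Points are the 2 lists of each group and horizontal lines their means, with covered length in bp (top) and bp per Mb covered in the same list (bottom), for each gene interval, and a dotted line between prenatal and postnatal groups. All 4 postnatal Bdnf points, from 3807 to 4340 bp, lie below the prenatal ones, whereas for Egr1 only the lower row was called across birth, as higher after it.

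The 2 Bdnf regions open in every list were chr2:109516168-109519004 and chr2:109533130-109535408, the longest of all 101 regions, and together they were covered over 3588 ± 402 bp before birth and 3368 ± 94.3 bp after it (SD, n = 8 and 4). A region lost after birth can only lie among the other 26 regions, so their values are a description of the remainder and not a separate result. These 26 were covered over 3659 ± 1189 bp before birth, at least 2201 bp in each list, and over 704 ± 214 bp after it, at most 927 bp (SD, n = 8 and 4). Of the 28 Bdnf regions, 19 (67.9%) were open in prenatal lists only and 4 (14.3%) in postnatal lists only, where the genome had 42.3% and 40.7%. In the other 4 intervals prenatal-only regions were 2 of 13 at Npas4, 3 of 20 at Egr1, 5 of 22 at Fos and 5 of 18 at Arc. Postnatal-only regions there were 4 of 13 at Npas4, 8 of 20 at Egr1, 8 of 22 at Fos and 9 of 18 at Arc. Each of the 4 postnatal-only Bdnf regions came from a single list. Of the 19 prenatal-only Bdnf regions, 13 were open in 2 or more lists, and 0 in all 8 prenatal lists. With 8 prenatal and 4 postnatal lists, the 2 counts do not have equal chances.

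The prenatal Bdnf regions were open in different sets of lists, and no difference between populations passed adjustment. At chr2:109540303-109541146 all 6 deep-layer lists were open, over 457 and 476 bp at E13.5, 626 and 655 bp at E16.5 and 514 and 718 bp at E18.5, and no upper-layer list was. Complete separation of 6 from 6 lists gave p = 0.00216 by Fisher's exact test, the smallest possible here, and an adjusted p of 0.0501 over 42767 regions, which misses 0.05. By this test 0% of regions were called in either direction, and 12.3% were more often open in deep-layer and 1.64% in upper-layer lists at an unadjusted p under 0.05. On the main chromosomes alone, a setting added once the data were known, the adjusted p was 0.0499 (Fisher's exact test). Of the 9 regions testable between populations in the 5 intervals, it was the single region with an unadjusted p under 0.05.

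Further along the Bdnf interval, chr2:109567315-109568460 was open in the 4 deep-layer lists of E16.5 (662 and 607 bp) and E18.5 (851 and 1066 bp) and in no other list. The region at chr2:109510331-109510809 was open in the 4 lists of E13.5 and E16.5, over 219 to 348 bp, and chr2:109525736-109526284 in both E13.5 lists and E16.5 replicate 1. Regions open in upper-layer E17.5 alone lay at chr2:109575074-109576489 (1416 and 563 bp) and chr2:109548326-109548954 (552 and 528 bp), each open in both E17.5 lists and nowhere else. Such regions were 2 of the 101 in the intervals (1.98%), both at Bdnf, and 2.63% of all regions in the genome, and they too rest on the pair with the same library name. The E17.5 lists shared chr2:109583307-109584506, covered over 1110 and 1200 bp, with the E13.5 lists, which had 214 and 483 bp there. The region at chr2:109537328-109537827 was open in both E17.5 lists and E13.5 replicate 2. None of these was open in a P1 or P5 list. Of the 8 Bdnf regions tested across birth none passed (Fisher's exact test, adjusted p 0.36 or more). With 2 lists per stage, differences between single stages were not tested.

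**Figure D5:**
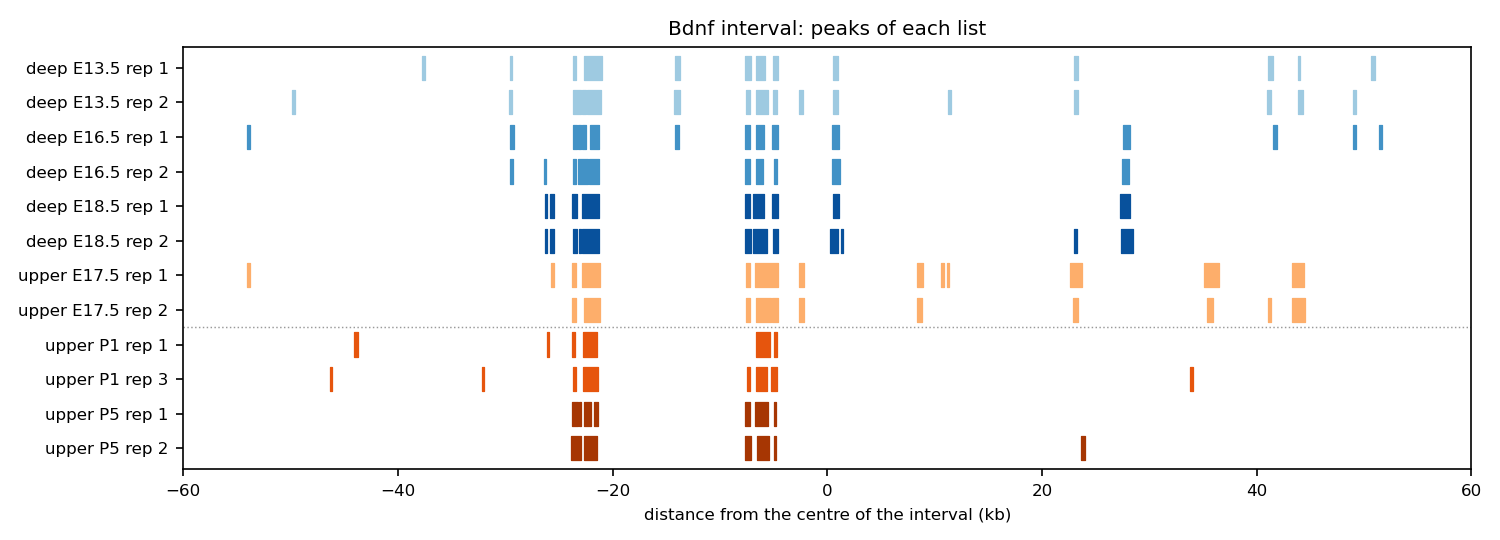
Peaks of each list against the distance (kb) from the centre of the Bdnf interval, with rows and colours as in the plot for Fos and Egr1. The 2 broad regions open in all 12 lists stand left of the centre, while the rows below the dotted line, the 4 postnatal lists, hold 6 to 8 peaks against 9 to 16 above it.

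Between populations, no interval differed in covered length past adjustment. Deep-layer and upper-layer means were 6086 ± 290 and 6433 ± 885 bp at Fos, 5837 ± 1355 and 6577 ± 1029 bp at Egr1, 3233 ± 997 and 3219 ± 666 bp at Npas4, 2495 ± 539 and 3052 ± 1071 bp at Arc, and 6690 ± 1016 and 5688 ± 2641 bp at Bdnf (SD, n = 6 each). The adjusted p ranged from 0.54 to 1 (exact permutation tests, two-sided; 0% of windows called in either direction, 8.42% higher in deep-layer and 13.8% higher in upper-layer lists at an unadjusted p under 0.05). None of the 5 intervals had an unadjusted p under 0.05 in bp. Per Mb covered in the list Bdnf was 108.8 ± 5.71 bp in deep-layer and 90.7 ± 11.1 bp in upper-layer lists (SD, n = 6 each; exact permutation p = 0.00649, adjusted p = 0.0522), where 5.98% of windows were called higher in deep-layer and 3.89% higher in upper-layer lists. The upper-layer E17.5 lists, at 101.6 and 102.2 bp, lay within the deep-layer range of 97.8 to 113.8 bp, so the lower upper-layer values were those of P1 and P5.

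The windows most like each gene were found by Pearson correlation over the 12 lists of the length per Mb covered, among 100 kb windows on other chromosomes. They are descriptions, since lists share depth. For Bdnf the highest was chr13:107800001-107900000 with r = 0.97, followed by chr12:63800001-63900000 and chr6:14100001-14200000, both with r = 0.95. For Egr1 they were chr13:58100001-58200000, chr16:34100001-34200000 and chr14:55300001-55400000, with r from 0.97 to 0.98. For Fos they were chr18:32300001-32400000, chr17:73200001-73300000 and chr9:113800001-113900000, with r from 0.93 to 0.94. For Npas4 they were chr6:54200001-54300000, chr11:6000001-6100000 and chr18:38100001-38200000, each with r = 0.92, and for Arc chr7:142500001-142600000, chr3:88000001-88100000 and chr9:30800001-30900000, each with r = 0.87.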

How the data were processed

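The data were 12 lists of ATAC-seq peaks. The authors deposited 1 list per sample with chromosome, start, end and name, in other units than counts: positions in bp, with no score, height or p-value. Per the submitters' processing notes, positions are on mm9, and the tools named, with no order or role, are MACS2 2.1.0, Picard 1.14.0, Bowtie2 and cutadapt. The peak threshold, the read depth and any transposase shift were not stated there. A deeper list can hold more and wider peaks, so covered length also carries depth.

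Peaks overlapping each interval were counted, clipped to it and summed as covered length. Peaks of all lists that overlapped or touched were merged into regions, open in a list at 1 bp or more. Covered lengths of the intervals and of all 100 kb windows with a peak were compared by exact permutation of list labels, and open lists per region by Fisher's exact test, each with Benjamini-Hochberg adjustment over the whole table. Widths of regions open in all lists were compared likewise, a comparison added after seeing the data. A call is an adjusted p under 0.05. Tests were checked on simulated data. Regions named were those open in all lists, those called, those open in all lists of only 1 side of birth, and the 3 widest others per interval by median length where open. Others were named after their values were seen. Promoter windows came from RefSeq (GRCm38.p6). A list of other activity-regulated genes was fixed but not analysed here, since it needs an mm9 annotation, and the cell types were not checked against marker loci. The intervals, genes and lists were chosen with earlier results of these data known. Alternatives were each list left out, the widest peaks or random thinning to equal list length, 500 bp windows, a replicate block, scaling, a shortened interval, peak counts, 0.5 coverage, merging within 150 bp, no filter and main chromosomes only. Python 3.11.15, numpy 2.4.6, pandas 2.3.3, scipy 1.17.1 and matplotlib 3.10.9 were used.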

Additional observations from a re-analysis of the deposited data

Results flagged for a closer look

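Among 40 sets of 4 to 8 lists checked for a value far from the rest, 2 were picked out, where chance picks about 1 in 20. Both were numbers of Egr1 peaks. Deep-layer E13.5 replicate 2 had 12 Egr1 peaks, and the next highest of the 8 prenatal lists had 9. Upper-layer P5 replicate 1 had 13 Egr1 peaks, and the next highest of the 6 upper-layer lists had 9. In genome-wide terms these lists were long ones, with 153892 and 131337 peaks. The part of list length in these counts was not tested.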

How the results depend on the processing

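The Bdnf fall across birth kept its direction and call without each list and in 7 other settings (exact permutation adjusted p 0.00758 to 0.0438). Differences below are postnatal minus prenatal, or upper-layer minus deep-layer, in bp unless said. Across birth the Fos difference was -343 as reported, 144 after thinning, 29.2 bp per Mb covered, and -676 in the interval shortened by 0.25 at each end (called, exact permutation adjusted p = 0.0103). Egr1 was 49.8 bp per Mb covered, called. Arc was -466, and 313 with 500 bp windows, 9.03 bp per Mb covered and 0.75 peaks. Npas4 was 89.5, and -39.8 with 500 bp windows, -1.13 in the shortened interval and from -253 to 325 with each list left out. Between populations Fos was 347, and -250 with 500 bp windows, -239 in the shortened interval and -0.50 peaks. Egr1 was 740, and -123 with 500 bp windows and -0.17 peaks. Npas4 was -13.5, and 4.59 bp per Mb covered and from -286 to 309 with each list left out. The 2 regions called across birth became 0 with the widest peaks, thinning, 0.5 of the region covered or no filter, and 1 with 500 bp windows or merging within 150 bp. Between populations the 0 regions called became 1 with the widest peaks and on the main chromosomes. For widths, 1 region called across birth became 3 relative to the list median and 0 to 1 with each list left out (0 without upper-layer P5 replicate 1), and between populations 0 became 1 relative to the list median. The width difference across birth of Fos chr12:86826363-86827474 was from -7.18 to 65.1 with each list left out. Except where a setting tests fewer or more regions by construction, the cause was not tested.

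Same-numbered lists deviated together in some pairs of groups and in opposite directions in others (r from -0.63 to 0.60 in 10 pairs, 4 over 0.1). With no common direction, the numbers were not taken as pairs. With the replicate block, Bdnf across birth had the difference of -3175 bp and an exact permutation adjusted p of 0.0368, and the counts of called regions and of called widths across birth were both 0 (exact permutation adjusted p = 0.0955 for both regions and 0.0614 for the Arc width).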
